A study of Mus musculus with 8 samples.

Results

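The 10 glycolytic enzyme genes Hk1, Hk2, Gpi1, Pfkl, Pfkp, Aldoa, Pgk1, Eno1, Pkm and Ldha were measured by RNA sequencing in mouse epiblast at embryonic day 5.5. They were taken by symbol from a table of 52636 gene identifiers, of which 18321 had enough counts to be tested, and 10 of the 10 were among those. Where a symbol had 2 identifiers, as Aldoa did, the one with more counts was used. The epiblasts came from a mouse line with the genotype Sox2Cre;CRAFR26, in which Sox2Cre drives recombination in the epiblast and a cRAF construct induces the kinase ERK when tamoxifen is given. Vehicle controls carry both alleles too, so that, as labelled, the groups differ in the agent and the clone. Embryos were kept for 4 h in IVC2 medium with 250 nM 4-hydroxytamoxifen (4OHT), or for 4 h with ethanol, the vehicle. Titles of the vehicle libraries read 0 h, and whether those embryos were cultured cannot be settled from the labels. The line goes back to embryonic stem cells injected into morulas, and the labels name 2 clones, clone 4 and clone 8, each with 2 vehicle and 2 4OHT libraries. Each library is a pool of 10 epiblasts freed of extraembryonic layers by dissection, with 7 ng of RNA. The labels do not say that replicates came from separate litters, so that p-values measure only the spread between these samples.

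Glycolysis turns glucose into pyruvate in the cytosol, with a net gain of ATP and NADH. Hexokinase traps glucose in the cell as glucose 6-phosphate, and phosphofructokinase carries out the committed step. Lactate dehydrogenase reduces pyruvate to lactate and returns the NAD+ that glyceraldehyde phosphate dehydrogenase uses. Pluripotent cells of the post-implantation embryo are known for a strong reliance on glycolysis, and many of its genes are known targets of HIF1 and MYC.

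The promoters of 5 genes are shown because their genes had the largest log2 fold changes of the 10 in clone 8: Hk1, Pfkp and Hk2, where these were positive, and Pgk1 and Ldha, where they were negative. Each is the 250 bases before an annotated start in RefSeq, on build GRCm38.p6, read 5′ to 3′ on the gene's strand. The Hk1 window is chr10:62340422-62340671 on the minus strand, before the second of 2 annotated starts, and that of Hk2 is chr6:82774455-82774704, minus strand. The Pfkp window is chr13:6648772-6649021, minus strand. The Pgk1 window is chrX:106186850-106187099, plus strand, and that of Ldha is chr7:46845554-46845803, plus strand, before the first of 2 annotated starts. Capitals mark the hypoxia response element cores ACGTG or GCGTG on either strand, which read CACGT and CACGC where they lie on the other strand.
Hk1: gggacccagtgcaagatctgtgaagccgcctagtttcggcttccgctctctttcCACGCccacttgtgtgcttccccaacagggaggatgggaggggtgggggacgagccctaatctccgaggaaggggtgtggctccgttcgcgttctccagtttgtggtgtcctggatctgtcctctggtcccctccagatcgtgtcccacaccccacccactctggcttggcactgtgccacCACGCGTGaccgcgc
Hk2: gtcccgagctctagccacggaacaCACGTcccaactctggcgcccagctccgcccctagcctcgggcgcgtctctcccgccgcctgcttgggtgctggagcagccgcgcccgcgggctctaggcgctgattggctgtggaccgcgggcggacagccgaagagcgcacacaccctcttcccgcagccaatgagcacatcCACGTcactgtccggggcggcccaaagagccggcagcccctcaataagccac
Pfkp: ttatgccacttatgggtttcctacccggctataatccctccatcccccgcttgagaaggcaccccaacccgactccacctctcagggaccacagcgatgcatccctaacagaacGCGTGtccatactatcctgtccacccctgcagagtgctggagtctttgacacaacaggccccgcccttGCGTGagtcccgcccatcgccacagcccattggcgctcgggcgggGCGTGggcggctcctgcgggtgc
Pgk1: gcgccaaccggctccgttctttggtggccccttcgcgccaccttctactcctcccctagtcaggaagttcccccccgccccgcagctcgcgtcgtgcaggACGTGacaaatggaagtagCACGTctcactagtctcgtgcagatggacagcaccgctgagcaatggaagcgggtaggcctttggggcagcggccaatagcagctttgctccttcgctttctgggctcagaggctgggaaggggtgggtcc
Ldha: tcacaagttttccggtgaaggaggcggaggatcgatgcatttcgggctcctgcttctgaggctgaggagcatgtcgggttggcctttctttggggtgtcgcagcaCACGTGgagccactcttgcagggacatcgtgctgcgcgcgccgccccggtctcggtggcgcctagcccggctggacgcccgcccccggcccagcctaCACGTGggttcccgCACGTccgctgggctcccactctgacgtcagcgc
GCGTG occurred 3 times in the windows of Hk1 and Pfkp each, and 1 pair of the Hk1 matches overlaps. ACGTG occurred 2 times in those of Hk2 and Pgk1 each, and 5 times in that of Ldha. There 2 matches of the palindrome CACGTG, the E-box, each count as ACGTG on both strands. Over the 32851 mouse starts in the table, 16.6% of windows hold ACGTG, 28.2% hold GCGTG and 38.6% hold either. Of the 17 starts of the 10 genes, 13 hold either, in 9 of the 10 genes. The 17 windows are not separate: for Aldoa and for Eno1, 2 of the 3 windows overlap and share their matches. The 13 thus include windows that hold the same match. Genes with several starts also have more chances of a match, so that 9 of 10 genes cannot be set against the share per start. CACGTG was in 1 of the 17, against 6.0% of all starts, and the ETS core CCGGAAG in 0 of 17, against 6.9%. The outer Hk1 start holds none of these letters. A match is a description of the sequence, not a binding site.

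Sequencing depth was 33.3 M to 38.0 M counts in vehicle (M, mega) and 56.4 M to 72.5 M after 4OHT, so that depth did not overlap between the conditions. Levels are in CPM, counts per 1 M of the scaled library size. The members were deep in every library, with the lowest count 640 for Hk1 in vehicle clone 8 replicate 1. Together the 10 genes took 1.56% (95% Wilson interval 1.555 to 1.561%) to 2.01% (2.005 to 2.014%) of the counts of a library; these intervals cover counting error only. All 10 epiblast markers had counts in every library. So did 14 of 14 markers of visceral endoderm and 12 of 12 of extraembryonic ectoderm, the layers that were dissected away, and 0 of these were at 0 in any library. Egr1, an immediate early gene of the ERK pathway, stood at 5.77 to 18.2 CPM in the vehicle libraries and 55.4 to 379 CPM in the 4OHT libraries. It came from a list of 10 ERK check genes, and the others were less uniform. In clone 4, 7 of the 10 had a positive and 3 a negative log2 fold change after 4OHT. There 0 were called at an adjusted p under 0.05, where 0.0382% of all genes were. In clone 8, 4 were called higher and 1 lower, where 8% and 8.6% of all genes were.

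Per kilobase of exon, the most abundant of the 10 transcripts was Ldha, with a mean level of 1133 CPM per kb (839 to 1443 over 8 libraries). Pkm followed at 1094 (946 to 1272), Aldoa at 809 (633 to 922) and Eno1 at 781 (649 to 920). The range of Ldha overlapped those of the other 3, and those of Aldoa and Eno1 overlapped, whereas Pkm lay above Aldoa and Eno1 in every library. Pgk1 came next at 213 CPM per kb (166 to 272), then Pfkl at 106 (83.2 to 141) and Gpi1 at 79.6 (73.5 to 90.4), and the last 2 overlapped. Hk2 stood at 22.5 CPM per kb (15.0 to 25.2), apart from its neighbours in every library. Hk1, at 5.14 (2.09 to 6.38), and Pfkp, at 4.27 (1.87 to 5.74), were the lowest and overlapped each other. Each enzyme after the committed step was thus above each enzyme at or before it. Lengths are those of all annotated exons together, which understates the level of genes with many alternative exons.

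**Figure D1:**
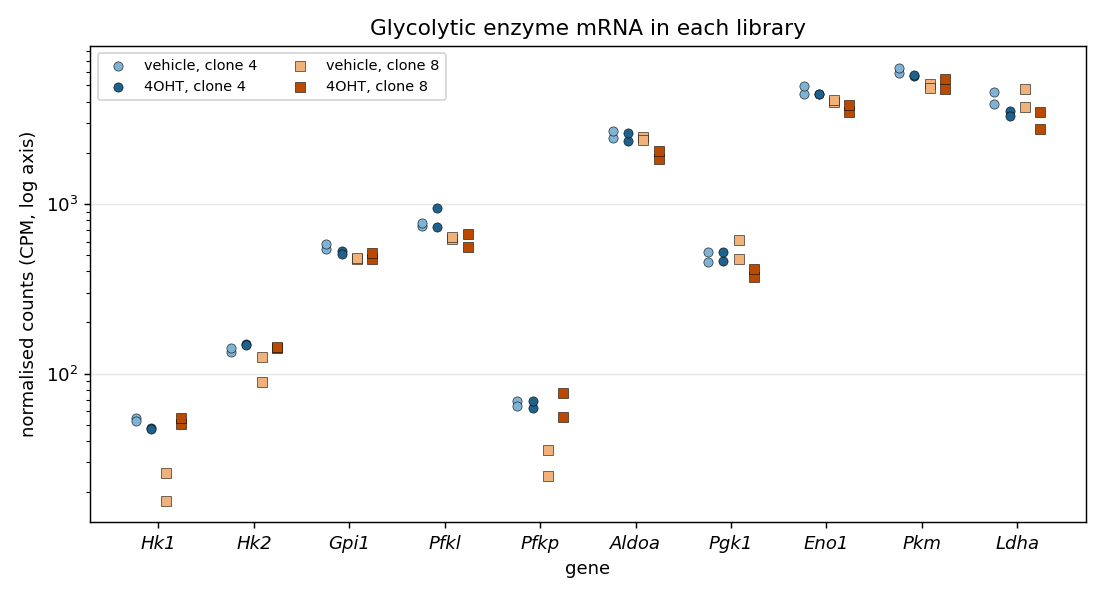
CPM of each of the 10 glycolytic enzyme genes (x axis) on a log axis (y axis), with 1 point per library; colours and shapes give the 4 groups of clone and treatment. Hk1 and Pfkp stand lowest in the 2 vehicle libraries of clone 8, at 17.8 and 25.8 CPM and at 25.0 and 35.2 CPM.

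The hexokinases come first in the pathway. Hk1 (ENSMUSG00000037012, chr10:62268855-62379908, minus strand, GRCm38) encodes the broadly expressed hexokinase. It stood at 54.4 and 52.8 CPM in vehicle clone 4, at 47.9 and 47.2 in 4OHT clone 4, at 17.8 and 25.8 in vehicle clone 8 and at 50.4 and 54.4 in 4OHT clone 8. Only the vehicle libraries of clone 8 were low, and they lay apart from the other 6 libraries. Hk1 in clone 8 rose 2.41-fold after 4OHT, with means of 21.8 ± 5.62 and 52.5 ± 2.82 CPM (SD, n = 2 each) and a log2 fold change of 1.27 (SE 0.18, edgeR quasi-likelihood adjusted p 0.00850). The means of clone 4 were 53.6 ± 1.16 CPM in vehicle and 47.6 ± 0.545 CPM after 4OHT (SD, n = 2 each), and the log2 change of -0.17 (SE 0.18, adjusted p 0.829) was within the spread. Hk2 (ENSMUSG00000000628, chr6:82725025-82774454, minus strand) encodes an inducible hexokinase that can bind mitochondria. It stood at 133 and 142 CPM in vehicle clone 4, 150 and 147 in 4OHT clone 4, 89.7 and 126 in vehicle clone 8 and 142 and 143 in 4OHT clone 8. As with Hk1, the vehicle libraries of clone 8 were the lowest, and here they lay closer to the rest. The log2 fold change of Hk2 was 0.40 in clone 8 (SE 0.15, adjusted p 0.102) and 0.11 in clone 4 (SE 0.15, adjusted p 0.881), and neither passed the threshold.

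Hk1 and Hk2 are alternative enzymes for 1 step. Compared per kilobase, Hk1 made up 22.2% and 20.7% of their sum in vehicle clone 4 and 12.2% and 12.5% in vehicle clone 8. In 4OHT clone 4 the share was 18.2% and 18.4%, and in 4OHT clone 8 it was 20.0% and 21.0%. Hk2 was the larger part in all 8 libraries. The vehicle libraries of clone 8 were again those that stood apart.

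Gpi1 (ENSMUSG00000036427, chr7:34201330-34230336, minus strand) encodes the isomerase that makes fructose 6-phosphate. It varied least of the 10, with a coefficient of variation of 7.36% over the 8 libraries and a range of 474 to 583 CPM. Its log2 fold change after 4OHT was -0.12 (SE 0.10, adjusted p 0.773) in clone 4 and 0.04 (SE 0.10, adjusted p 0.809) in clone 8.

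The phosphofructokinases followed different courses. Pfkl (ENSMUSG00000020277, chr10:77986947-78010083, minus strand), the liver-type subunit, held 85.4 to 90.5% of the per-kilobase sum of Pfkl, Pfkm and Pfkp. Its level was 555 to 944 CPM, highest in 4OHT clone 4 replicate 2 and lowest in 4OHT clone 8 replicate 1. After 4OHT the log2 change of Pfkl was 0.15 in clone 4 (SE 0.14, adjusted p 0.801) and -0.04 in clone 8 (SE 0.14, adjusted p 0.853). Pfkp (ENSMUSG00000021196, chr13:6579768-6648777, minus strand), the platelet-type subunit, stood at 69.0 and 64.6 CPM in vehicle clone 4 and 62.8 and 68.5 in 4OHT clone 4. In clone 8 it stood at 25.0 and 35.2 CPM in vehicle and 55.3 and 76.9 after 4OHT. As for Hk1, the vehicle libraries of clone 8 were low and did not overlap the other 6. Pfkp in clone 8 rose 2.20-fold, with means of 30.1 ± 7.21 and 66.1 ± 15.3 CPM (SD, n = 2 each) and a log2 value of 1.13 (SE 0.21, adjusted p 0.0119). In clone 4 its log2 fold change was -0.02 (SE 0.20, adjusted p 0.987). As a share of the 3 subunits per kilobase, Pfkp was 1.76% and 2.46% in vehicle clone 8 and 3.27 to 5.02% in the other 6 libraries.

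**Figure D2:**
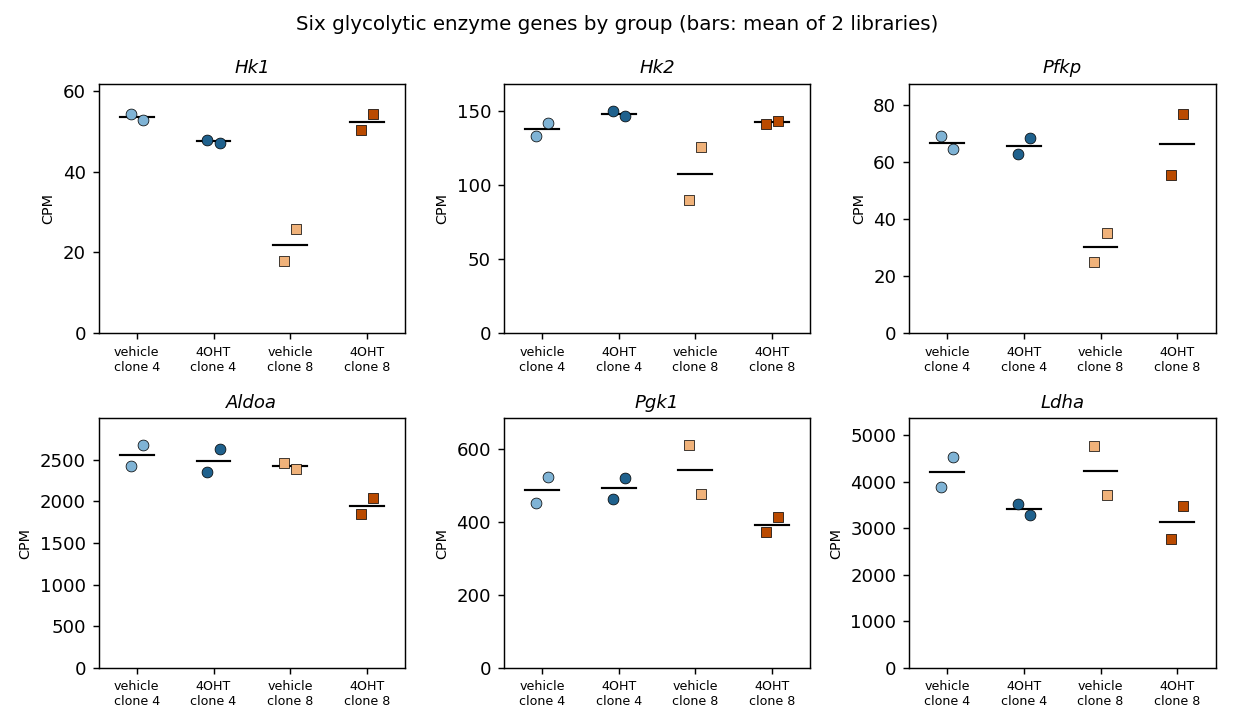
CPM (y axis, from 0) of 6 of the enzymes by group (x axis), with 1 point per library and a bar at the mean of the 2 libraries of a group. Hk1, Hk2 and Pfkp are lowest in vehicle clone 8, whereas Aldoa and Pgk1 are lowest in 4OHT clone 8 and Ldha is lower in each 4OHT library than in each vehicle library.

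Aldoa (ENSMUSG00000030695, chr7:126795234-126800751, minus strand) encodes the aldolase that splits fructose 1,6-bisphosphate. It stood at 2430 and 2684 CPM in vehicle clone 4, 2352 and 2632 in 4OHT clone 4, 2465 and 2390 in vehicle clone 8 and 1844 and 2041 in 4OHT clone 8. The 4OHT libraries of clone 8 were the lowest of the 8. For Aldoa the log2 fold change was -0.32 in clone 8 (SE 0.10, adjusted p 0.0603) and -0.04 in clone 4 (SE 0.10, adjusted p 0.952). The second Aldoa identifier (ENSMUSG00000114515, chr7:126800790-126809108, minus strand) had 4 to 25 counts per library and was called in 0 of the 6 comparisons.

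Pgk1 (ENSMUSG00000062070, chrX:106187100-106203699, plus strand) encodes phosphoglycerate kinase, the first ATP-producing step. It stood at 452 and 524 CPM in vehicle clone 4, 462 and 522 in 4OHT clone 4, 610 and 476 in vehicle clone 8 and 372 and 413 in 4OHT clone 8. The 4OHT libraries of clone 8 were lower than all others. Its log2 fold change was -0.47 in clone 8 (SE 0.14, adjusted p 0.0524) and 0.01 in clone 4 (SE 0.14, adjusted p 0.992). Pgk1 is on the X chromosome; the summed Y-linked transcripts were 3.64 CPM in 4OHT clone 4 replicate 2 and 51.6 to 133 CPM in the other 7 libraries, and the part of sex in the Pgk1 values was not tested.

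Eno1 (ENSMUSG00000063524, chr4:150236721-150248879, plus strand), the enolase, ranged from 3488 to 4949 CPM, and Pkm (ENSMUSG00000032294, chr9:59656368-59679375, plus strand), the pyruvate kinase, from 4729 to 6359 CPM. In both genes the highest library was vehicle clone 4 replicate 2 and the lowest was 4OHT clone 8 replicate 1. The log2 fold changes of Eno1 were -0.08 (SE 0.09, adjusted p 0.856) in clone 4 and -0.14 (SE 0.09, adjusted p 0.309) in clone 8, and those of Pkm were -0.11 (SE 0.10, adjusted p 0.794) and 0.04 (SE 0.10, adjusted p 0.829). Eno1b, a near-identical copy of Eno1 that was looked at after the values were seen, stood at 255 to 504 CPM, and reads may be split between the copies. With both summed, the log2 fold change of Eno1 was -0.05 in clone 4 and -0.12 in clone 8. The gene counts do not separate the M1 and M2 products of Pkm.

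Ldha (ENSMUSG00000063229, chr7:46841475-46855627, plus strand) encodes the lactate dehydrogenase subunit that favours lactate. It stood at 3897 and 4544 CPM in vehicle clone 4, 3532 and 3294 in 4OHT clone 4, 4777 and 3709 in vehicle clone 8 and 2777 and 3483 in 4OHT clone 8. Each 4OHT library was below each vehicle library, also across clones, as held for 5.58% of all tested genes, and 0 of the 10 enzymes were separated the other way, as 3.42% of genes were. The summed level of the 10 epiblast markers was separated in the same direction, at 5512 to 5920 CPM in vehicle and 4690 to 5202 CPM after 4OHT. Dnmt3b alone stood at 2409 to 3188 CPM of that sum, and 3 of these 10 markers were so separated by themselves. Over both clones 10 of the 10 markers had a negative log2 fold change, as 8389 of 18321 genes did, and 0 were called. In clone 8, 5 of them were called lower, where 8.6% of all genes were. The part of the epiblast share in the Ldha values was not tested. The means were 4232 ± 510 CPM in vehicle and 3271 ± 345 CPM after 4OHT (SD, n = 4 each). The log2 fold change over both clones was -0.37 (SE 0.11) with an adjusted p of 0.171, which missed the threshold; without the expression filter it was called. Within clones it was -0.31 (SE 0.15, adjusted p 0.563) in clone 4 and -0.44 (SE 0.15, adjusted p 0.0749) in clone 8. Ldha held 86.4 to 90.7% of the per-kilobase sum of Ldha and Ldhb.

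Counted over both clones with clone as a term, 0 of the 10 enzymes were called by the quasi-likelihood test of edgeR (adjusted p under 0.05), where 0.00546% of all tested genes did. At an unadjusted p under 0.05 there were 2 of the 10, near the 16.9% of all genes, and DESeq2 called 0, against 5.59% of all genes. The median log2 fold change of the 10 was -0.04, against 0.04 for all genes. With library totals as the scaling it was 0.03, against 0.115 for all genes. Apart from Ldha, the log2 fold changes ran from -0.23 for Pgk1 (SE 0.13) to 0.55 for Pfkp (SE 0.24, adjusted p 0.289), with 0.54 for Hk1 (SE 0.27, adjusted p 0.342). The calls depended on the filter: without it 3 of the 10 were called, Hk1, Pfkp and Ldha, where 4.32% of all genes were. In the mean of the responses of the 2 clones, 1 was called, Hk1, with an adjusted p of 0.0429, where 5.8% of all genes were.

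Within clone 4, 0 of the 10 passed, where 0.0382% of all genes did, with 0 of the 10 at an unadjusted p under 0.05 and 0 by DESeq2. Their log2 fold changes ran from -0.31 for Ldha to 0.15 for Pfkl, with a median of -0.06 against -0.01 for all genes. With length and GC trends removed the median was -0.13, against -0.01 for all genes. Within clone 8, 2 of the 10 rose, Hk1 and Pfkp, and 0 fell. The median log2 fold change of the 10 was -0.004, against 0.07 for all genes. In that comparison 16.6% of all tested genes were called, 8% higher and 8.6% lower, so that the count of called enzymes is close to the background. An unadjusted p under 0.05 was reached by 6 of the 10, against 33.2% of all genes. Besides Hk1 and Pfkp, the 4OHT and vehicle ranges of clone 8 did not overlap for Hk2, which was higher, and for Aldoa, Pgk1, Eno1 and Ldha, which were lower; 31.7% and 28.3% of all genes were so separated. DESeq2 called Pgk1 (adjusted p 0.0208) and Ldha (0.0407) lower in clone 8 in addition to Hk1 and Pfkp, where it called 23.3% of all genes.

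**Figure D3:**
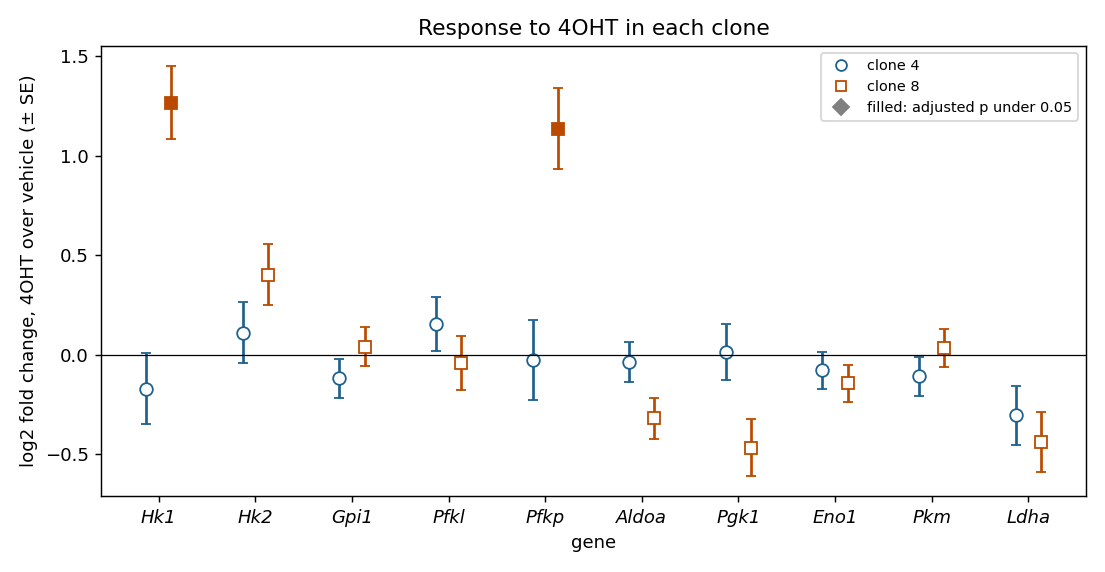
Log2 fold change of 4OHT over vehicle (y axis) for each enzyme gene (x axis) in clone 4 (circles) and clone 8 (squares), with bars of 1 SE; filled points passed an adjusted p under 0.05. Only Hk1, at 1.27, and Pfkp, at 1.13, in clone 8 are filled, and the clone 4 points of both genes lie near 0.

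The difference of the responses between the clones was tested itself. For Hk1 the response in clone 8 exceeded that in clone 4 by 1.44 on the log2 scale (SE 0.25, edgeR quasi-likelihood adjusted p 0.0331). Of the 10 enzymes, this 1 passed, where 2.83% of all genes did. The difference for Pfkp was 1.16 (SE 0.29, adjusted p 0.0659), and for Pgk1 it was -0.48 (SE 0.20, adjusted p 0.200). The other 7 lay between -0.28 for Aldoa and 0.29 for Hk2, with adjusted p-values of 0.277 to 0.798. DESeq2 called Pfkp as well (adjusted p 0.00395), and 9.86% of all genes. The Hk1 call was lost without either vehicle library of clone 4 (adjusted p 0.116 and 0.138), without either 4OHT library of clone 4 (0.108 and 0.126) and without vehicle clone 8 replicate 1 (0.132). Pfkp was called without 4OHT clone 8 replicate 1 (0.0232).

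The clones were then compared within each condition, which uses the same libraries as the responses above. In vehicle, Hk1 was lower in clone 8 than in clone 4 by a log2 difference of -1.30 (SE 0.18, adjusted p 0.0152), and Pfkp by -1.15 (SE 0.21, adjusted p 0.0224). These were 2 of the 10 enzymes, where 4.31% of all genes were called lower in clone 8 and 8.37% in either direction. An unadjusted p under 0.05 was reached by 6 of the 10, against 25.7% of all genes. Pkm had a difference of -0.31 (SE 0.10, adjusted p 0.0798), and the other 7 lay between -0.35 for Hk2 and 0.15 for Pgk1. In 7 of the 10 both vehicle libraries of clone 8 were below both of clone 4, as in 29.2% of all genes. The median difference of the 10 was -0.25, against 0.004 for all genes. After 4OHT, 0 of the 10 differed between the clones, where 0.202% of all genes did. The differences of Hk1 and Pfkp were then 0.14 (SE 0.18) and 0.01 (SE 0.20). Taken 2 SE to either side, they ran from -0.21 to 0.50 and from -0.39 to 0.41. At an unadjusted p under 0.05 there were 4 of the 10, where 18% of all genes were, and these 4 were lower in clone 8: Pfkl at -0.46 (SE 0.14, adjusted p 0.138), Aldoa at -0.36 (SE 0.10, adjusted p 0.129), Eno1 at -0.28 and Pgk1 at -0.33. DESeq2 called 0 of the 10 there.

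The values of Hk1 and Pfkp moved with other features of the vehicle libraries of clone 8. The 12 extraembryonic ectoderm markers summed to 226 and 250.5 CPM there, to 479 to 768 in vehicle clone 4, 648 and 681 in 4OHT clone 4 and 630 to 771 in 4OHT clone 8. In the clone 8 response, 8 of these 12 markers were called higher and 1 lower, where 8% and 8.6% of all genes were. The 14 visceral endoderm markers summed to 3283 and 3335 CPM in vehicle clone 8, 1349 and 2580 in 4OHT clone 8, 1522 and 2030 in vehicle clone 4 and 4432 and 5195 in 4OHT clone 4. Of these 14 markers, 1 was called higher and 4 lower in the clone 8 response. Fewer cells of a type and less RNA per cell cannot be told apart in such pools. Long genes were also low in these libraries: for genes with at least 5128 bases of exon, the median log2 deviation from the mean of all libraries was -0.14 and -0.08 in vehicle clone 8, against 0.02 to 0.10 in the other 6. Hk1 and Pfkp have 8532 and 13401 bases of exon, and Hk2 has 5969. With each library's trend in length and GC content removed, the clone 8 response was 1.27 for Hk1 (adjusted p 0.0087) and 0.97 for Pfkp (adjusted p 0.0198). The vehicle difference was then -1.25 (adjusted p 0.0142) and -1.03 (adjusted p 0.0277). The part of the extraembryonic cells in these values was not tested. Mitochondrial transcripts took 1.35% and 1.19% of counts in 4OHT clone 8 and 0.205 to 0.619% in the other 6 libraries.

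**Figure D4:**
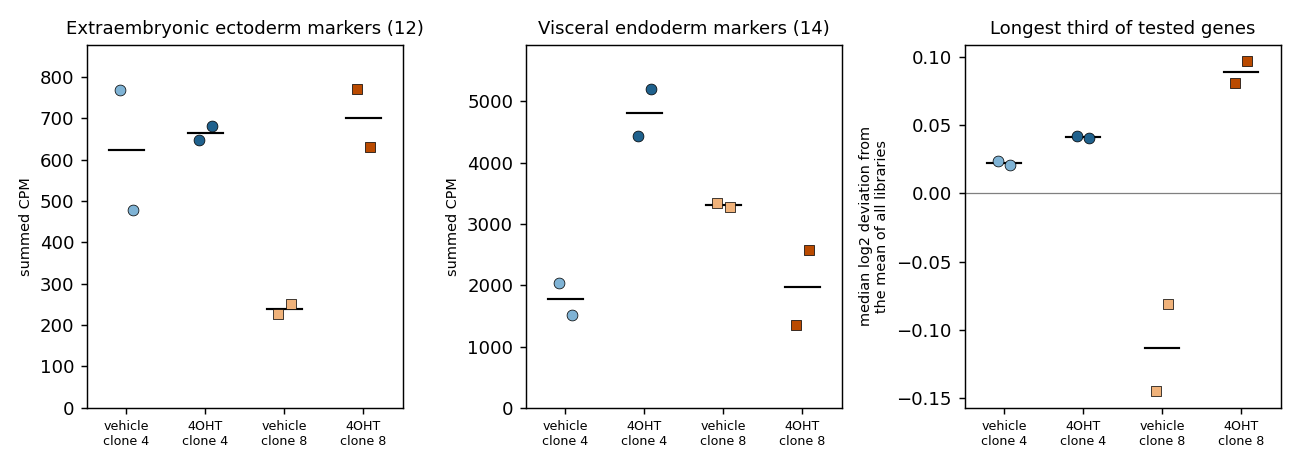
Summed CPM of 12 extraembryonic ectoderm markers (left) and 14 visceral endoderm markers (middle), and the median log2 deviation of the genes with at least 5128 bases of exon (right), by group (x axis), with 1 point per library and a bar at the mean of 2. Vehicle clone 8 is lowest on the left, at 226 and 250.5 CPM, and on the right, at -0.14 and -0.08.

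Both calls of the clone 8 response rested on 1 library. Without vehicle clone 8 replicate 1, Hk1 stood at 0.999 (adjusted p 0.0747) and Pfkp at 0.886 (adjusted p 0.119), in a fit that called 0 of 20643 genes. Without vehicle clone 8 replicate 2, 5 of the 10 were called, where 11.6% of all genes were: Hk1, Pfkp and Hk2 higher, and Pgk1 and Ldha lower. In a fit of clone 8 alone the log2 fold changes were 1.24 for Hk1 and 1.11 for Pfkp (edgeR quasi-likelihood adjusted p 0.0578 and 0.0621). That fit called only 3 of 17556 genes, or 0.0171%. The vehicle difference was not called without vehicle clone 4 replicate 1 (adjusted p 0.105 for Hk1 and 0.139 for Pfkp), without vehicle clone 4 replicate 2 (0.0926 and 0.144) or without vehicle clone 8 replicate 1 (0.149 and 0.203). The direction was the same in each of these fits.

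**Figure D5:**
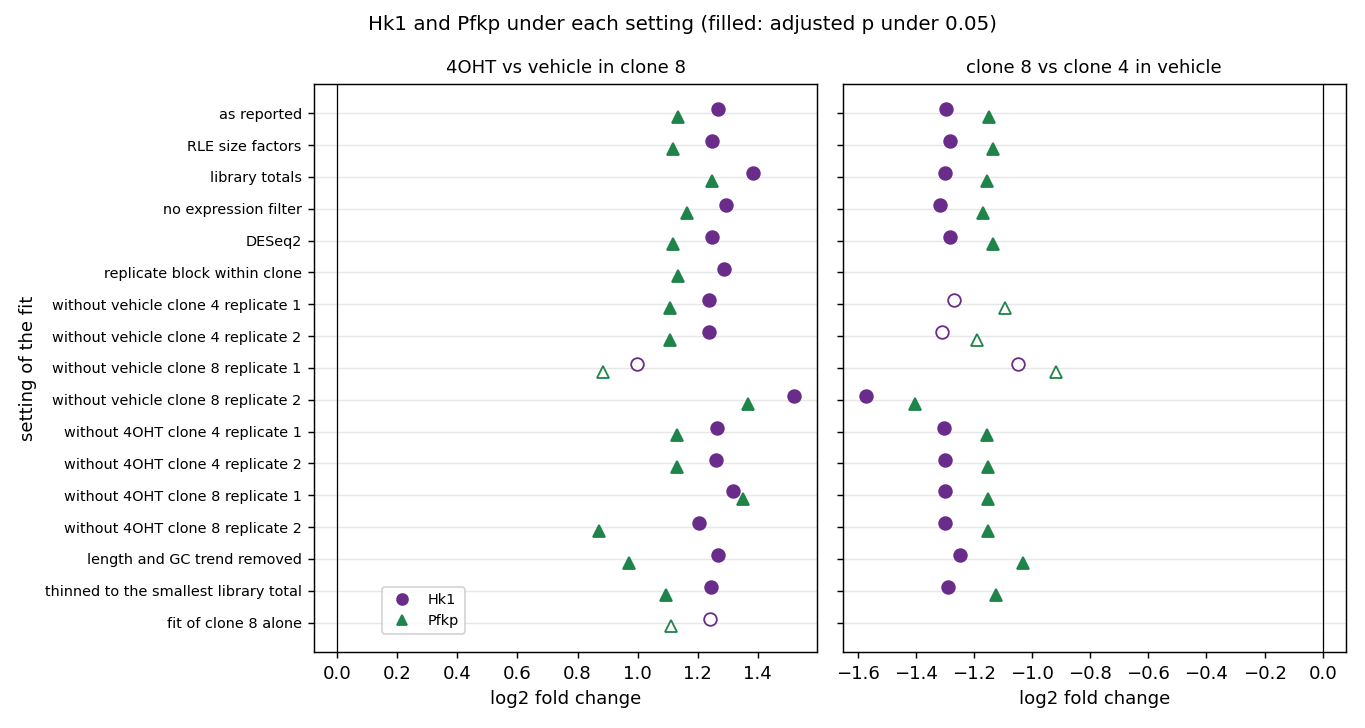
Log2 fold change (x axis) of Hk1 (circles) and Pfkp (triangles) under each setting of the fit (y axis), for 4OHT against vehicle in clone 8 (left) and clone 8 against clone 4 in vehicle (right); filled symbols passed an adjusted p under 0.05. Without vehicle clone 8 replicate 1, Hk1 at 0.999 and Pfkp at 0.886 are open on the left.

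Over the 8 libraries the enzymes fell into patterns that cut across the order of the pathway. As a description, the Pearson correlation of log2 CPM was 0.976 between Hk1 and Pfkp, 0.894 between Hk1 and Hk2 and 0.890 between Hk2 and Pfkp. Gpi1 and Pkm had 0.946, Eno1 and Aldoa 0.887, Eno1 and Pkm 0.867, Aldoa and Pgk1 0.831, and Pgk1 and Ldha 0.808. Hk1 and Pgk1 had -0.627 and Hk2 and Ldha -0.622. The libraries share groups and depth, so that these values mostly repeat the group differences above. The 5 genes closest to the mean log2 CPM of the 10 enzymes were Ssr3 (0.993), Mta2 (0.985), Sdha (0.982), Nfyc (0.980) and Ccnb1 (0.979). That mean had a correlation of only -0.015 with Pgk1, 0.044 with Ldha and 0.443 with Aldoa. For the other enzymes it was 0.689 (Hk2) to 0.921 (Pkm). The 5 genes are thus close to the mean, not to each of the 10 enzymes. Sdha is a subunit of succinate dehydrogenase in the mitochondrion and Ccnb1 a mitotic cyclin.

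The other genes of the pathway were read beside the 10 enzymes. Of 20 tested further glycolytic enzymes and isoforms, 0 passed in both clones together and 0 in clone 4. For clone 8, the calls of this and the following lists are read against the 16.6% of all genes, and they too were lost without vehicle clone 8 replicate 1, where 0 of 20643 genes were called. In clone 8, 1 rose, the ADP-dependent glucokinase Adpgk (log2 fold change 0.63, adjusted p 0.0134). There 2 fell, Tpi1, the triose phosphate isomerase (-0.56, adjusted p 0.0363), and Ldhb (-0.53, adjusted p 0.0397). Gapdh, the next step after Tpi1, stood at 1969 to 2819 CPM in vehicle and 1349 to 1915 after 4OHT, and as with Ldha the ranges did not overlap. Its log2 fold change over both clones was -0.48 (SE 0.15, adjusted p 0.177). Of the 20, 6 had each 4OHT library below each vehicle library, against 5.58% of all genes, and 1, Gapdhs, had each above, against 3.42%. Besides Gapdh the 6 were Tpi1, Ldhb, Aldoc, Eno3 and Ldhc, and 0 of the 6 were called over both clones. Gapdhs, Aldoc, Eno3 and Ldhc are named after their values were seen.

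Of 8 glucose and lactate transport genes, Slc2a1, the glucose transporter GLUT1, was lowest in the same libraries as Hk1. It stood at 459 and 512 CPM in vehicle clone 4, 387 and 408 in 4OHT clone 4, 274 and 270.3 in vehicle clone 8 and 387 and 432 in 4OHT clone 8. It rose in clone 8 by 0.59 (SE 0.11, adjusted p 0.0121), and its response differed between the clones by 0.88 (SE 0.15, adjusted p 0.0324). In the same list Bsg, a chaperone of lactate transporters, and Slc2a2 fell in clone 8, by 0.37 (adjusted p 0.0343) and 2.14 (adjusted p 0.0327) on the log2 scale. Slc2a2, the transporter GLUT2, is known from visceral endoderm as well, and its level was 0.802 to 14.1 CPM. Slc2a3, the transporter GLUT3, stood at 1153 and 1807 CPM in 4OHT clone 4 and 405 to 723 CPM in the other 6 libraries. Its log2 fold change in clone 4 was 1.44 (SE 0.27, adjusted p 0.0932). Between the clones in vehicle, 2 of the 8 transport genes were called lower in clone 8 and 0 higher, where 4.31% of all genes were lower.

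Of 15 genes of fructose 2,6-bisphosphate and pyruvate entry, 0 were called in either clone's response, and Pdha1 and Dlat, of pyruvate dehydrogenase, were lower in clone 8 in vehicle (-0.66, adjusted p 0.0230, and -0.46, adjusted p 0.0409). Of 5 tested gluconeogenic genes, Pcx, which makes oxaloacetate from pyruvate, rose in clone 8 (1.05, adjusted p 0.0132). Of 7 pentose phosphate enzymes, 3 fell in clone 8, Pgls (-0.61), Rpia (-1.03) and Taldo1 (-0.40), with adjusted p-values of 0.0296 to 0.0366. Between the clones in vehicle, 1 of the 7 was called higher in clone 8 and 0 lower. Pgls and Rpia belong to the branch that leaves glycolysis after the hexokinase step.

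Among 10 regulators of glycolytic genes, 3 rose in clone 8 and 0 fell. Hif1a, the oxygen-regulated factor, stood at 231 to 238 CPM in vehicle clone 4, 218 and 227 in 4OHT clone 4, 126 and 170.2 in vehicle clone 8 and 193 and 238 in 4OHT clone 8 (log2 fold change in clone 8 0.54, adjusted p 0.0443). Myc stood at 186 and 235 CPM in vehicle clone 4, 214 and 271 in 4OHT clone 4, 123 and 133 in vehicle clone 8 and 209 and 265 in 4OHT clone 8 (0.89, adjusted p 0.0134). Lin28b was the third (0.61, adjusted p 0.0274). In vehicle, 3 of the 10 regulators were lower in clone 8 than in clone 4, where 4.31% of all genes were: Hif1a (-0.66, adjusted p 0.0375), its partner Arnt (-0.70, adjusted p 0.0375) and Myc (-0.72, adjusted p 0.0383). Calls between the clones in vehicle, of these and of other genes, were lost without vehicle clone 4 replicate 1 or without vehicle clone 8 replicate 1, where 0 of 20692 and 0 of 20643 genes were called. Of 14 other hypoxia response genes, Ndrg1 (1.57, adjusted p 0.00850) and Kdm3a (1.11, adjusted p 0.0283) rose in clone 8 and Egln1 (-1.68, adjusted p 0.00834) and Higd1a (-0.58, adjusted p 0.0129) fell. These were 2 higher and 2 lower of the 14, where 8% and 8.6% of all genes were called. The part of a hypoxia response in the Hk1 and Pfkp values was not tested.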

How the data were processed

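RNA was measured in 8 libraries of 4 groups (vehicle and 4OHT, clone 4 and clone 8, n = 2 each). The authors deposited raw read counts per Ensembl gene with no normalization, as the whole-number values and differing totals show. Reads were handled with bcl2fastq 2.19.1 and STAR 2.5.3a and build mm10 (GRCm38), per the submitters' processing notes; the counting program, annotation and use of strand are not given in the sources used here, so genes with overlapping, antisense or near-identical partners are uncertain. Symbols matched 52403 of 52636 identifiers; the other 233 held at most 0.0325% of counts.

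The counts were tested in R 4.3.3 with edgeR 4.0.16: filterByExpr with a minimum count of 10, TMM scaling, and quasi-likelihood tests with Benjamini-Hochberg adjustment over 18321 genes, called at an adjusted p under 0.05. Both clones together were fitted with clone and treatment as additive terms; responses within clones, their difference and clone differences within a condition came from a fit of the 4 groups. SE is the log2 fold change over the square root of F, and CPM for correlations had a prior count of 2. DESeq2 1.42.0 and other settings were alternatives. The procedure was tested on simulated data. Exonic lengths and GC content came from GENCODE for GRCm38. A summed Eno1 and Eno1b count, thinned counts and removal of length and GC trends were chosen after the data were seen.

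The members, gene lists and tests were chosen with earlier results of these data known. The rule named all 10 enzymes, any called list gene, list genes above 100 CPM, up to 4 regulators in any case, and the 5 genes most like the enzymes' mean. Depth was 33.3 M to 72.5 M counts per library (M, mega).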

Additional observations from a re-analysis of the deposited data

Results flagged for a closer look

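The response to 4OHT differed between the clones, by the test of the difference in the fit of the 4 groups, for 1 of the 10 enzymes, Hk1, for 2 of 8 transport genes, 1 of 7 pentose phosphate enzymes, 2 of 14 hypoxia genes and 1 of 10 regulators, where 2.83% of all genes were called. The log2 difference, clone 8 minus clone 4, was 1.44 for Hk1 (adjusted p 0.0331), 0.88 for Slc2a1 (0.875 unrounded, adjusted p 0.0324) and 1.02 for the let-7 regulator Lin28b (adjusted p 0.0451). It was 2.28 for Ndrg1 (adjusted p 0.0230), a hypoxia response gene. It was -1.47 for the prolyl hydroxylase Egln1 (adjusted p 0.0494), -1.68 for the pentose phosphate enzyme Rpia (adjusted p 0.0491) and -5.11 for Slc2a2 (adjusted p 0.0269). The levels of Rpia and Slc2a2 were low, at 2.95 to 7.14 and 0.802 to 14.1 CPM, and those of Egln1 were 4.07 to 16.3 CPM. Egln1 stood at 13.01 and 16.3 CPM in vehicle clone 8 and at 4.07 to 6.07 CPM in the other 6 libraries. Ndrg1 stood at 10.9 and 17.6 CPM in vehicle clone 8 and at 27.8 to 49.8 CPM in the other 6. These differences are computed with the same vehicle libraries of clone 8 as that of Hk1, but those libraries did not stand apart for every gene. Lin28b stood at 46.4 and 53.1 CPM there, 38.6 and 48.8 in 4OHT clone 4 and 75.4 and 76.7 in 4OHT clone 8. In clone 4, Slc2a2 stood at 0.936 and 2.32 CPM in vehicle and 11.3 and 14.1 after 4OHT. Rpia stood at 3.29 and 4.02 CPM in vehicle clone 4 and 5.29 and 6.16 in 4OHT clone 4. Calls of the difference rest on several libraries. Without vehicle clone 8 replicate 1, 0 of 20643 genes were called. Without 4OHT clone 4 replicate 1 or replicate 2 there were 0 of 19281 and 0 of 19235, and without vehicle clone 4 replicate 1 or replicate 2 there were 21 and 17. Dixon's limit was passed by 0 of 22 levels of the 10 enzymes and their sum, taken over the 4 libraries of a condition. It looks for 1 value apart from the rest. Both vehicle libraries of clone 8 were low for Hk1 and Pfkp (ratios 0.217 and 0.232, limit 0.829), so it could not flag either library.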

How the results depend on the processing

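Calls of the enzymes changed with the following choices. Without the expression filter 3 were called in both clones, 5 in clone 8 and 2 for the response difference. The shares of all genes called there were 4.32%, 13.8% and 6.83%. That fit also called 3 between clones in vehicle (Pkm besides Hk1 and Pfkp) and 2 in 4OHT, where 9.37% and 4.57% of all genes were. Thinned counts called 3 in clone 8 (Pgk1, adjusted p 0.0484, besides Hk1 and Pfkp), where 17.8% of all genes were. By DESeq2 4 were called in clone 8 and 2 for the response difference, where 23.3% and 9.86% of all genes were. The mean of within-clone contrasts called 1 in both clones, where 5.8% of all genes were. The fit of clone 8 alone called 0, where 0.0171% of all genes were. Leaving out each library in turn called 0 to 5 in clone 8, 0 to 2 for the response difference and 0 to 3 between clones in vehicle. The cause was not tested.

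Medians of the 10 moved too. With library totals the median was 0.032 in both clones, 0.118 in clone 8, 0.144 for the response difference and -0.047 between clones in 4OHT. That scaling also moved the median of all genes, from 0.044 to 0.115 in both clones and from 0.07 to 0.19 in clone 8. For the response difference it moved from 0.054 to 0.160, and between clones in 4OHT from 0.018 to 0.115. With length and GC trends removed, the medians of the 10 were -0.132 in clone 4, 0.180 for the response difference and -0.032 between clones in 4OHT. Those of all genes were then -0.010, 0.047 and 0.044. Leaving out libraries gave -0.131 to 0.085 in clone 8, -0.059 to 0.117 for the response difference and -0.290 to -0.058 between clones in 4OHT.

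Signs of uncalled values turned as follows. With library totals these were Gpi1 (0.031) and Pkm (0.033) in both clones, Pfkl (0.078) in clone 8, Eno1 (0.038) in the response difference, Ldha (-0.004) between clones in vehicle, and Hk2 (0.037) and Gpi1 (0.021) between clones in 4OHT. Without the filter Ldha was -0.012 between clones in vehicle. With length and GC trends removed they were Eno1 (0.127) in the response difference, and Hk2 (0.123), Gpi1 (0.10), Pfkp (-0.053) and Pkm (0.039) between clones in 4OHT. Thinned counts turned Pfkp to 0.003 in clone 4 and -0.035 between clones in 4OHT. Leaving out libraries gave ranges that span 0. They were -0.044 to 0.122 for Pfkl in both clones. In clone 4 they were -0.039 to 0.321 for Pfkl, -0.090 to 0.036 for Pfkp, -0.121 to 0.041 for Aldoa, -0.088 to 0.125 for Pgk1 and -0.156 to 0.007 for Eno1. In clone 8 they were -0.022 to 0.092 for Gpi1, -0.183 to 0.078 for Pfkl and -0.078 to 0.134 for Pkm. For Ldha the response difference ran from -0.340 to 0.034. Between clones in vehicle they were -0.136 to 0.008 for Aldoa, -0.030 to 0.337 for Pgk1 and -0.180 to 0.194 for Ldha. Between clones in 4OHT they were -0.255 to 0.226 for Pfkp and -0.306 to 0.027 for Ldha.

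Deviations of same-numbered libraries had correlations over all tested genes of 0.095 in clone 4 and -0.010 in clone 8. With so few libraries per group, these values cannot show whether same-numbered libraries shared a litter or a batch. With the replicate number as a block, 2 enzymes were called for the response difference, Hk1 and Pfkp (adjusted p 0.0421), against 1 without it. There 2.46% of all genes were called. In both clones, clone 4 and clone 8, 0, 0 and 2 enzymes were called, where 0%, 0% and 15.8% of all genes were.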
